A study of Mus musculus with 6 samples.

Results

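The ovary of newborn mice was compared with the ovary of fetal mice, using the 2 ovary arrays of these ages out of the 6 arrays of the study. The fetal ovary was taken at 15.5 days postcoitum and the neonatal ovary on day 1 after birth. Both came from female mice of the inbred strain C57BL/6, bought from a breeder, with no treatment, transgene or mutation named in the labels. The other 4 arrays, of adult ovary at 10 weeks and of testis at the same 3 ages, are used below only to place a value. Each group has 1 array, so differences lack a replicate check, and the text gives neither tests nor standard errors. The labels do not say how many animals gave RNA to a sample.

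At the fetal age, oogonia have entered meiosis and are passing through prophase, in which homologous chromosomes pair along the synaptonemal complex, exchange strands and form crossovers. Around birth oocytes reach the end of this stage and arrest, the nests in which they lie break up, and primordial follicles form, each an oocyte with a layer of pregranulosa cells. The growing oocyte then builds the zona pellucida, its coat of glycoproteins, and stores proteins and RNAs for the early embryo, while connective tissue and muscle mature around it. The study as a whole was presented as a search for genes of chromosome segregation in the first meiotic division.

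Signals were brought to the same 2% trimmed mean on every array and raised to a floor of 75.3, the median of all scaled signals. A 4-fold difference between the arrays was the limit for calling a gene, and a ratio against an array at the floor is given as at least that many fold. The neonatal ovary array stood apart in 2 ways before any gene was compared. Its deposited signals were dimmer (2% trimmed mean 256, against 353 in fetal ovary), and its 3' to 5' ratio for Gapdh, a measure of RNA integrity, was 3.12 against 1.45 in fetal ovary and 1.32 to 2.36 on the others. The same ratio for Actb was 3.28 in neonatal and 3.78 in fetal ovary. The part of these differences in the results was not tested. Markers of the gonad and of sex matched the labels, but markers of neighbouring tissues rose in neonatal ovary, as given below. Foxl2, the granulosa transcription factor, had signals of 532 and 878 in fetal and neonatal ovary, and all 3 measured Y-linked genes were at the floor on both arrays. The tissue is bulk, so fewer cells of a type and less RNA per cell cannot be told apart.

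Of 18193 genes, 138 were 4-fold or more higher in neonatal ovary, which is 0.759%, and 42 were lower, which is 0.231%. Fetal ovary was at the floor for 66 of the 138 genes, and neonatal ovary for 18 of the 42. The split depended on the scaling. Without any scaling the counts were 76 higher and 99 lower, and scaling to the hybridization controls gave 171 and 28. The median log2 ratio of the 13086 genes above the floor on at least 1 ovary array was 0.00. Agreement between probe sets of the same gene was the only technical measure. The difference of their log2 ratios, divided by the square root of 2, had a robust SD of 0.28, and 27 of 4580 pairs differed by over 4-fold. Errors that both probe sets share, such as those of RNA quality or scaling, cancel in this measure. Among the called genes, 37 of the 138 had another probe set above the floor, and in 24 of these it was 2-fold or more in the same direction. In Adamtsl5, Arrdc4, Bzw2 and Tmem242 the other probe set did not move the same way. For the 42 lower genes the same was found in 9 of 15, with Inca1 the exception. Genes just inside the limit were Lcn2 (4.02), Lypd4 (4.02) and Rnd3 (4.04), and just outside it lay Fcgbp (3.99), Ermap (3.99) and Cpsf4l (3.98).

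Oocyte genes were higher in neonatal ovary across their roles. Of 53 measured genes on 5 oocyte lists, 17 were 4-fold or more higher and 0 were lower, against 0.759% higher and 0.231% lower over all genes. The median log2 ratio of the 36 genes above the floor was 1.92, against 0.00 over all genes above it. Fetal ovary was at the floor for 37 of the 53 genes and neonatal ovary for 18, with 17 at the floor on both. A gene above the floor only in neonatal ovary cannot have a ratio below 1, so this median gives no independent support for the rise. Fetal ovary was at the floor for 11 of the 17 genes called higher, and fetal and neonatal testis were both at the floor for 10 of them. Over all 18193 genes, 12669 were above the floor in at least 1 of these testes. The summed signal of all 53 genes was 7271 in fetal ovary and 41413 in neonatal ovary, a ratio of 5.70.

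The transcription factors of the oocyte rose as a group of 4 out of 10 measured. Figla, a basic helix-loop-helix factor needed for primordial follicles and for the zona genes, had a signal of 352 in fetal ovary, 2405 in neonatal ovary and 87.0 in adult ovary, 6.83-fold higher after birth. Nobox, an oocyte homeobox factor, went from the floor in fetal ovary to 1556 in neonatal ovary, at least 20.7-fold higher, and was at 264 in adult ovary. Figla and Nobox were at the floor in fetal and neonatal testis. Lhx8, a LIM homeobox factor of early oocytes, went from the floor to 1254, at least 16.6-fold higher. Sohlh1, a helix-loop-helix factor of early germ cells in both sexes, went from the floor to 954, at least 12.7-fold higher, and had signals of 222 and 237 in fetal and neonatal testis. Its partner Sohlh2 was at 240 and 355, within the limit. Taf4b, a gonadal subunit of the general transcription factor TFIID, was at 343 in fetal and 131 in neonatal ovary, 2.63-fold lower and not called. Obox2, Obox3 and Obox5 were at the floor on both arrays.

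All 3 zona pellucida genes went from the floor in fetal ovary to clear signals after birth. Zp1 reached 771 in neonatal ovary (at least 10.2-fold higher), Zp2 1969 (at least 26.1-fold) and Zp3 1509 (at least 20.0-fold). In adult ovary they were at 677, 1479 and 2126, and in the fetal, neonatal and adult testis all 3 were at the floor. Among secreted proteins and receptors, Gdf9, the growth factor through which oocytes act on granulosa cells, had signals of 168 in fetal, 1065 in neonatal and 2395 in adult ovary, 6.34-fold higher after birth. Its signals of 169 and 138 in fetal and neonatal testis lay near the fetal ovary value. Kit, the receptor on oocytes for Kit ligand, was at 479 and 1861, a ratio of 3.88 that fell short of the limit, so it was not called, while Kitl itself was at 3071 and 2216. The other probe set of Kit went from the floor to 97.1. Bmp15, a growth factor close to Gdf9, was at the floor on both arrays and at 207 in adult ovary.

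**Figure D1:**
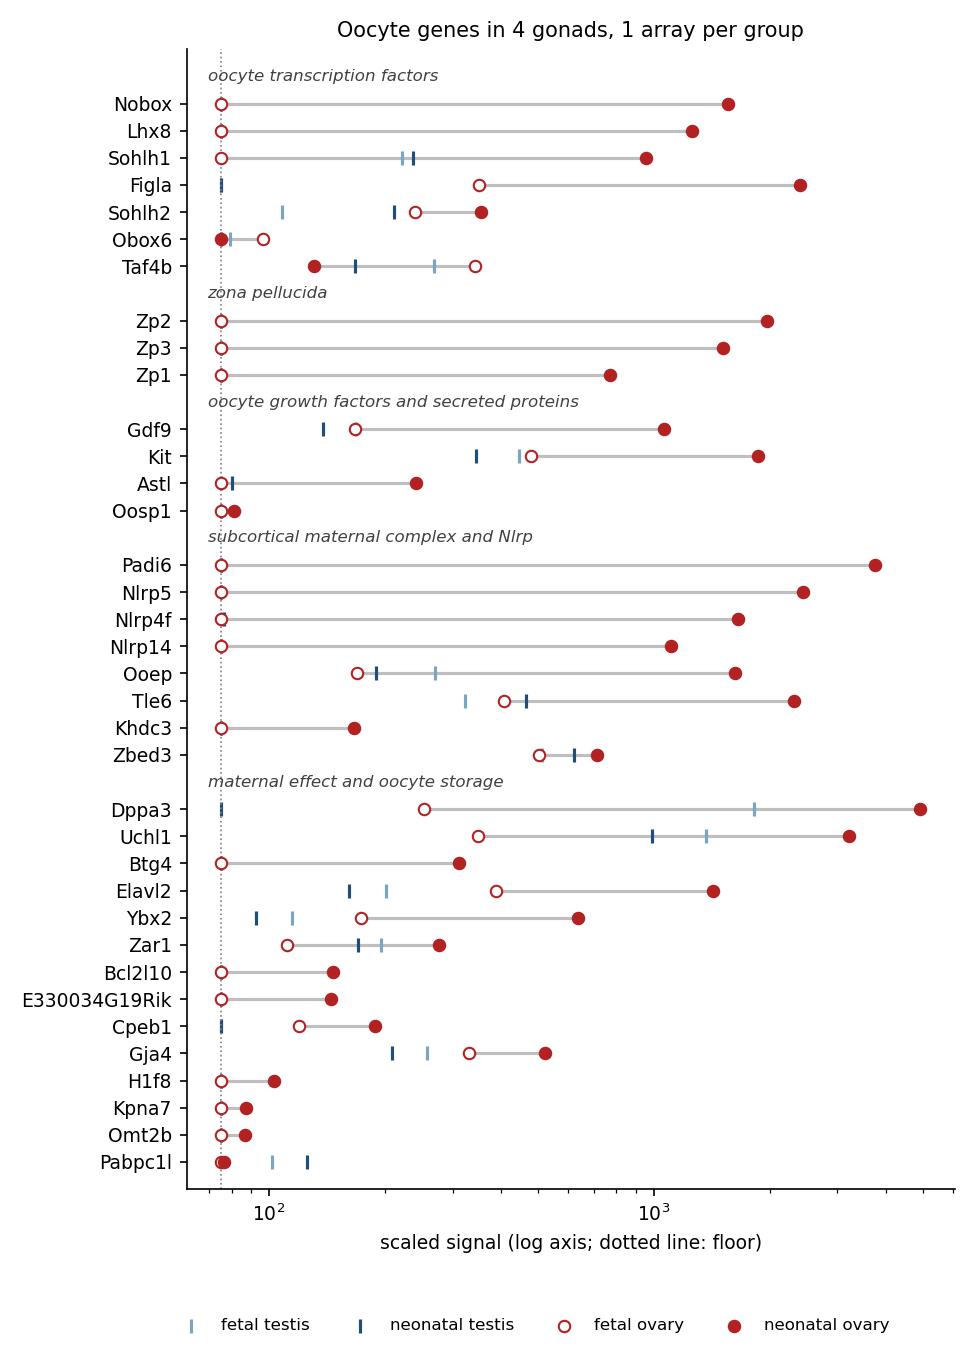
Scaled signals (log axis, arbitrary units) of the oocyte list genes above the floor of 75.3 (dotted line) in fetal ovary (open circles) or neonatal ovary (filled circles), with fetal and neonatal testis as ticks, 1 array each; ticks can be hidden under a circle at the floor. Zp3 and Nobox lead from the floor to 1509 and 1556, while Taf4b runs the other way, from 343 to 131.

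To show what stands upstream of the genes that rose, 4 promoters are printed, each 250 bases before a RefSeq start in GRCm38.p6, written 5′ to 3′ on the gene's strand. Capitals mark CANNTG on either strand, the E-box to which helix-loop-helix factors such as Figla bind.
Zp3 promoter, chr5:135979855-135980104, plus strand: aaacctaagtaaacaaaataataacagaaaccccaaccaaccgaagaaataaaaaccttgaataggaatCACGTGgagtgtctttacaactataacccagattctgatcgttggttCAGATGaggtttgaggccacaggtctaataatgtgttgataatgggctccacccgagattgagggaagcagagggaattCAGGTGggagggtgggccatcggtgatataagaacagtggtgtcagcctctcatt
Figla promoter, chr6:86016941-86017190, plus strand: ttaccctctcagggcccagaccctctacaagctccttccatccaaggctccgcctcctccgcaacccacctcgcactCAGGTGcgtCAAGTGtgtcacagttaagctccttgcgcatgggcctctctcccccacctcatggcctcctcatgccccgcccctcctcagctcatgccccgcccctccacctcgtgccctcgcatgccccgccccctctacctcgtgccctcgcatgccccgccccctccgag
Nobox promoter, chr6:43309555-43309804, minus strand: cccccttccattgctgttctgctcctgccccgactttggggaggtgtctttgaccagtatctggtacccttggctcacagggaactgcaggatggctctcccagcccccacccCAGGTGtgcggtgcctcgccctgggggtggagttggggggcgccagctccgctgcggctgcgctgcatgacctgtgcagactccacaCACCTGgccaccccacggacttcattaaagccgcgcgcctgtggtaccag
Padi6 promoter, chr4:140742644-140742893, minus strand: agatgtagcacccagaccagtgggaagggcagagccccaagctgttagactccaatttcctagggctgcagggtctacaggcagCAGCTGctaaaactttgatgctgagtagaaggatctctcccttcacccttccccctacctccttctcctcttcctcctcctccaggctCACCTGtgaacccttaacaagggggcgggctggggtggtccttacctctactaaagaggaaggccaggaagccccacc
These letters lie 181, 134 and 55 bases before the start in Zp3, 173 and 164 in Figla, 137 and 50 in Nobox, and 166 and 78 in Padi6. Among the 17 oocyte genes that rose, 12 had a promoter in the table, and 10 of the 12 (83.3%) held CANNTG. The motif is short and frequent: 9419 of 14452 promoters of genes on the arrays (65.2%) held it. The homeobox core TAATTG was found in 1 of the 12 promoters (8.33%) and in 6.13% of all promoters. The homeobox core TAATTA was also found in 1, against 3.83% of all, and the TATA box TATAAA in 1, against 10.5% of all. A match is a string of letters and not a measured binding site.

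The subcortical maternal complex, an assembly under the egg membrane that early embryos need, was higher in 4 of its 6 measured members. On this list, with the related Nlrp genes, 6 of 15 genes were called higher and 0 lower, and the median log2 ratio of the 8 above the floor was 3.57. Fetal ovary was at the floor for 12 of the 15 and both arrays for 7, so the filter also fixed the sign of ratios behind this median. Padi6, an egg protein of the peptidylarginine deiminase family, went from the floor to 3747, at least 49.8-fold higher, and Nlrp5 (also called Mater) from the floor to 2445, at least 32.5-fold. Ooep had signals of 169 in fetal and 1621 in neonatal ovary, a ratio of 9.59. Tle6 was at 408 and 2314, a ratio of 5.68. Both of these genes also had signals in testis: Ooep was at 271 and 190 and Tle6 at 323 and 466 in fetal and neonatal testis. Khdc3 was at the floor and then at 167, and Zbed3 at 504 and 714, so neither was called. Of the Nlrp genes, Nlrp4f reached 1652 (at least 21.9-fold higher) and Nlrp14 1108 (at least 14.7-fold). Nlrp4a, Nlrp4b, Nlrp9a, Nlrp9b and Nlrp9c were at the floor on both arrays.

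Genes of oocyte storage and of the maternal effect were divided between early and late. Dppa3 (Stella), which protects the maternal genome from demethylation after fertilization, had signals of 253 in fetal, 4911 in neonatal and 685 in adult ovary, 19.4-fold higher after birth. Uchl1, a ubiquitin hydrolase of oocytes and neurons, was at 348 and 3219, a ratio of 9.24. Btg4, which promotes the clearing of maternal RNA, went from the floor to 313, at least 4.15-fold higher. Elavl2, an RNA-binding protein, was at 389 and 1428 and Ybx2, which binds stored RNA, at 174 and 635, ratios of 3.67 and 3.65. Other probe sets of Elavl2 above the floor on both arrays were at 227 and 448, and at 144 and 106. In all, 3 of 18 measured genes on this list were called, with a median log2 ratio of 0.96. Zar1 had 112 in fetal, 277 in neonatal and 1167 in adult ovary, and Bcl2l10 went from the floor to 147 and then 967. Across the 5 lists 17 genes were at the floor on both ovary arrays compared, and 13 of these, among them Bmp15, Rfpl4, Oog3 and Obox5, were above it in adult ovary. Of the 17 genes that rose, 13 were lower in adult than in neonatal ovary. Of 15 genes of meiotic arrest and maturation 0 were called, and 6 were at the floor on both ovary arrays. Over all genes 0.759% were higher and 0.231% lower, so a count of 0 is near the background. The median was -0.17 over 9 genes, or 0.12 with scaling to the hybridization controls. Within that list Wee2, a kinase that holds the oocyte in arrest, went from the floor to 273, at least 3.63-fold.

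The genes of meiotic prophase went the other way. Of 47 measured genes on 6 lists, 14 were 4-fold or more lower in neonatal ovary and 0 were higher, against 0.231% lower and 0.759% higher over all genes. The median log2 ratio of the 45 genes above the floor was -0.77. Neonatal ovary was at the floor for 13 of the 47 genes and both arrays for 2. A gene above the floor only in fetal ovary cannot have a ratio above 1, so the filter fixed the sign of such ratios. Neonatal ovary was at the floor for 8 of the 14 genes that fell. All 14 were at the floor in adult ovary. The decline was uneven. Another 5 genes lay between 2-fold and 4-fold lower, Mnd1 and Sycp2l were 2-fold or more higher, and 24 were above the floor and within 2-fold. Over all genes 2.47% were 2-fold or more lower and 3.6% were higher. Between the same ages in testis, where germ cells are not in prophase, 0 of the 47 genes were called and the median was 0.13. The summed signal of the 47 genes was 41153 and 26670 in fetal and neonatal ovary, and 18034 and 19064 in testis. In bulk tissue, a level signal of a gene that testis also expresses does not show its level in oocytes. Beside the decline of prophase genes, the 13 measured genes of germ cells of both sexes went both ways. Of these 3 were called higher and 1 lower, with a median log2 ratio of 0.31. Among those not called, Ddx4, a helicase, was at 1172 in fetal and 872 in neonatal ovary. Mael was at 1510 and 1838 and Dazl at 1916 and 893.

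Of 5 genes of meiotic entry 2 fell, and the median log2 ratio was -1.10. Stra8, which retinoic acid induces and which is required to enter meiosis, had a signal of 1047 in fetal ovary and was at the floor in neonatal ovary, at least 13.9-fold lower. Meioc, which sustains prophase, went from 673 to the floor, at least 8.93-fold lower. Its partner Ythdc2 was at 259 and 140, and Dazl, which licenses germ cells for meiosis, at 1916 and 893, so neither was called.

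Genes of the synaptonemal complex were split between those that fell and those near their fetal level. Of 12 measured genes of the complex and the chromosome axis, 5 fell, and the median log2 ratio was -0.51. Tex12, of the central element, had signals of 1125 in fetal and 162 in neonatal ovary, a 6.96-fold difference. Sycp2, of the axis, was at 884 and 140, 6.31-fold lower, and Syce3, also of the central element, at 826 and 199, 4.15-fold lower. The gene 4930447C04Rik, whose current name is Six6os1 and which belongs to the central element, went from 897 to the floor, at least 11.9-fold lower. Its other probe sets, dimmer in fetal ovary, went from 120 and 177 to the floor, at least 1.59-fold and 2.35-fold lower. Hormad1, which recruits the break machinery to unsynapsed axes, went from 475 to the floor, at least 6.30-fold lower. Other members of the same structures stayed near their fetal level. Sycp3, the axis protein, was at 3715 and 3051, Syce2 at 4637 and 3872, Syce1 at 1255 and 953, and Sycp1, the transverse filament, at 720 and 468. Sycp2l, an oocyte paralogue of Sycp2, went from the floor to 181, at least 2.40-fold higher. Trip13, which removes Hormad proteins from synapsed axes, was at 1137 and 997.

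The cohesins that hold meiotic chromosomes together were divided likewise. Stag3 had 1287 in fetal and 311 in neonatal ovary, 4.14-fold lower, close to the limit of 4. Smc1b was at 1962 and 1068 and Rec8 at 540 and 392, ratios of 1.84 and 1.38, and neither was called. In adult ovary Stag3 and Smc1b were at the floor and Rec8 was at 84.8.

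Break formation and strand exchange were lower in some of their core genes. Spo11, which makes the breaks, was at 430 in fetal and 96.5 in neonatal ovary, 4.46-fold lower. Dmc1, the meiotic recombinase, was at 550 and 119, 4.64-fold lower, and its other probe set went from 454 to the floor. Meiob, which binds single-stranded DNA, went from 451 to the floor (at least 5.99-fold), and M1ap, a protein of crossover formation, from 934 to the floor (at least 12.4-fold). The cofactors of Dmc1 did not follow it: Psmc3ip was at 398 and 392, and Mnd1 at 179 and 415. The other probe set of Psmc3ip was at 433 and 383 in ovary and at 466 and 545 in fetal and neonatal testis. Its level in oocytes is therefore not known. Brca2, which loads recombinases, was at 1008 and 804, Tex11 at 309 and 278 and Tex15 at 2709 and 2327. Of 6 break genes 1 was called, with a median of -1.29 over 4 genes, and of 15 strand exchange and crossover genes 3 were called, with a median of -0.69.

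At the telomeres, which attach to the nuclear envelope during prophase, Spdya and Majin fell. Spdya, an activator of Cdk2, went from 639 to the floor, at least 8.48-fold lower, and Majin, of the attachment complex, from 364 to the floor, at least 4.83-fold lower. Terb1 was at 750 and 299, a 2.51-fold difference, and its partner Terb2 at 251 and 168. Sun1, which spans the envelope also in somatic cells, was at 1113 and 1071. The list's median was -1.05 over 6 genes, 2 of them called.

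**Figure D2:**
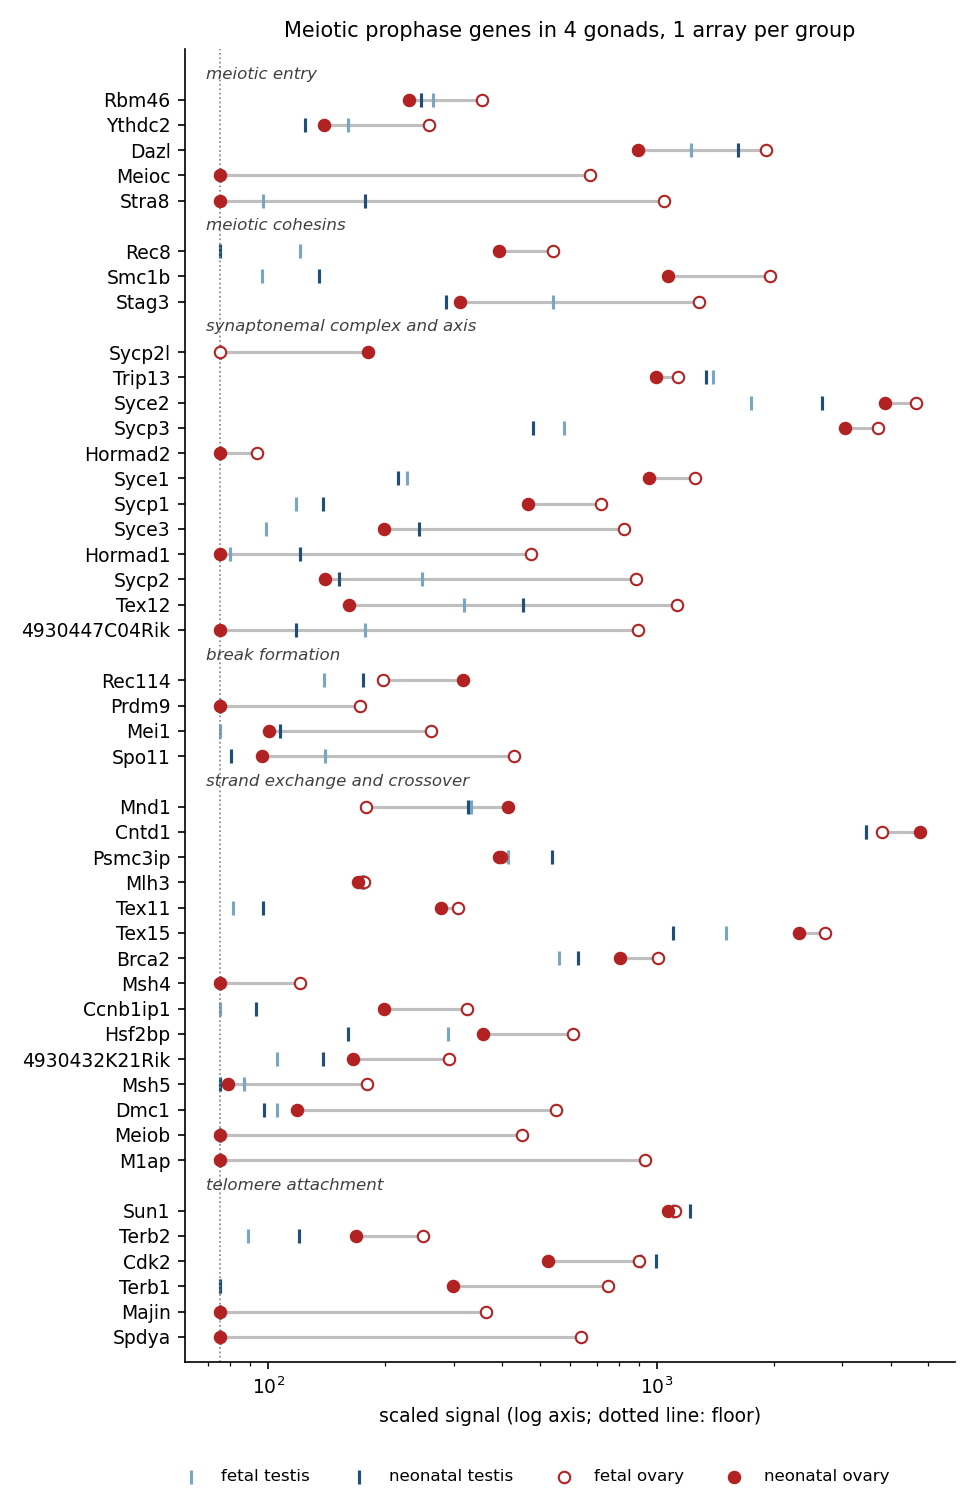
Scaled signals (log axis, arbitrary units) of the meiotic prophase list genes in fetal ovary (open circles) and neonatal ovary (filled circles), with fetal and neonatal testis as ticks and the floor of 75.3 as a dotted line, 1 array each. Stra8, Meioc and M1ap reach the floor after birth, while Sycp3 (3715 and 3051) and Syce2 (4637 and 3872) stay close to their fetal signals.

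Promoters of 2 genes that fell, Tex12 and Meioc, and of 2 that stayed within 2-fold, Smc1b and Sycp3, are printed in the same way. Capitals mark TCCCGC or its reverse complement GCGGGA, a core of the E2F and E2F6 sites known upstream of several germ cell genes.
Tex12 promoter, chr9:50561269-50561518, minus strand: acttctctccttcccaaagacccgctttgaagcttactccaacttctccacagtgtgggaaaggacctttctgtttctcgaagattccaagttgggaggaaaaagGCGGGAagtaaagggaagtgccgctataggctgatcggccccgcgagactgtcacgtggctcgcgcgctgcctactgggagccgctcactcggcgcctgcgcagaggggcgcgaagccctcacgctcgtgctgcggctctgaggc
Meioc promoter, chr11:102665335-102665584, plus strand: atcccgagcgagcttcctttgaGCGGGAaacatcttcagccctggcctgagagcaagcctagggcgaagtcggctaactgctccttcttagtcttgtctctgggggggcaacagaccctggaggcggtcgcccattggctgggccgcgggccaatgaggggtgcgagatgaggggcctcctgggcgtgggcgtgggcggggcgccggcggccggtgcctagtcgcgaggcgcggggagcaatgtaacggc
Smc1b promoter, chr15:85131958-85132207, minus strand: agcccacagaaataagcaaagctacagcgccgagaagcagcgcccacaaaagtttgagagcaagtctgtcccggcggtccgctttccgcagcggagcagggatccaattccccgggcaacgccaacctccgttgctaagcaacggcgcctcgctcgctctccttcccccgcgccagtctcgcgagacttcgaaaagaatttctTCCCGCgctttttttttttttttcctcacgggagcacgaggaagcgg
Sycp3 promoter, chr10:88459337-88459586, plus strand: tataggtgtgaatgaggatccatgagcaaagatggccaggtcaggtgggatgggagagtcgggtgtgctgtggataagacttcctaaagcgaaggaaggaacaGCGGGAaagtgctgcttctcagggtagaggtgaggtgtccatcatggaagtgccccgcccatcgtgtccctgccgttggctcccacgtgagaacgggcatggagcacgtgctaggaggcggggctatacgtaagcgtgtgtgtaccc
The match lies 145 bases before the start in Tex12, 228 in Meioc, 47 in Smc1b and 147 in Sycp3. The motif was found in 6 of 11 promoters of the genes that fell (54.5%) and in 15 of 29 promoters of the other prophase genes (51.7%), against 4047 of 14452 promoters of all genes on the arrays (28.0%). Genes called lower and genes not called thus held it in similar shares. The genes not called include 5 that were 2-fold to 4-fold lower. CANNTG was in 6 of the 11 and 22 of the 29 promoters (54.5% and 75.9%). The promoter of Stra8 held no match to TCCCGC in this window.

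None of the 24 measured genes of meiosis I segregation and the kinetochore, which act when chromosomes separate, was called, and none of them reached 2-fold in either direction. Over all genes 0.759% were called higher and 0.231% lower, and 3.6% and 2.47% passed 2-fold, so counts of 0 are near these shares. The median log2 ratio of the list was -0.03 over 23 genes. Bub1, a kinase of the spindle checkpoint, was at 1923 in fetal and 1032 in neonatal ovary, a ratio of 1.86, and Pttg1 (securin) at 2936 and 4632, a ratio of 1.58. Many of these genes also act in mitosis. The 15 proliferation genes had 0 called and a median of -0.15 (0.08 with scaling to the hybridization controls), with Mki67 at 3491 and 3609.

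Genes shared by germ cells of both sexes changed in part, in both directions. Gtsf1, a factor of the piRNA pathway that silences transposons, had signals of 255 in fetal and 4152 in neonatal ovary, 16.3-fold higher, and its other probe set went from 135 to 1732. Tdrd9, a helicase of that pathway, went from the floor to 1066, at least 14.2-fold higher. Piwil2, a piRNA-binding protein, was at 195 and 1005, 5.15-fold higher. In fetal and neonatal testis the same genes were at 1539 and 938 (Gtsf1), 766 and 292 (Tdrd9) and 743 and 545 (Piwil2). Tex101, a surface protein of germ cells, went from 1119 to 76.7 in ovary, 14.6-fold lower. In all, 3 of 13 genes of this list were higher and 1 was lower, with a median log2 ratio of 0.31 in ovary and of -0.58 in testis.

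The pluripotency genes had 1 of 17 called in ovary. Tcl1, a cofactor of Akt signalling, was at 86.3 and 733, 8.50-fold higher. Dppa4 was at 147 and 213 and Pou5f1 (Oct4) at 142 and 212 in fetal and neonatal ovary, against 3426 and 857 and against 775 and 130 in fetal and neonatal testis. The list's median was 0.44 in ovary, or -0.03 with no floor and 16 added, and -1.11 in testis. Among genes of oocyte quality control, Trp63, whose TAp63 form removes damaged oocytes, went from the floor to 320, at least 4.25-fold higher, with all testes and the adult ovary at the floor and its other 3 probe sets at the floor on both ovary arrays. The other 9 measured genes of that list were not called, among them Chek2 (312 and 468) and Bcl2l1 (1504 and 1372), and the median was 0.20, or -0.26 with signals as deposited.

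None of the 21 measured pregranulosa and granulosa genes was called, against 0.759% higher and 0.231% lower over all genes, so this count is near the background. Their median log2 ratio was -0.14 over 18 genes, or 0.02 with scaling to the hybridization controls. Wnt4, a signal that maintains the ovary, was at 2124 and 1275, Rspo1, which strengthens that signal, at 1616 and 1654, and Fst (follistatin) at 847 and 512. Nr5a2, a nuclear receptor of granulosa cells, was at 155 and 393 and at 4884 in adult ovary. Inha, a subunit of inhibin, was at 545 and 1059. Genes of mature follicles were still low: Fshr, the receptor for follicle-stimulating hormone, was at the floor and then at 79.0. The 14 genes of nest breakdown and Notch signalling had 0 called and a median of 0.00, with Notch2 at 1043 and 992 and Jag1 at 981 and 951. Of 7 theca and steroid genes 0 were called (median -0.01), with Hsd3b1, an enzyme of steroid synthesis, at 424 and 1615, a ratio of 3.81. Of 9 Sertoli genes only Tesc was called, from the floor to 416, and Sox9, the defining factor, was at the floor and then at 80.6.

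Matrix genes, which signals of bulk tissue cannot place in the stroma, were mostly above their fetal level. Of 30 measured fibrillar matrix genes, 23 had a ratio above 1, against 47.9% of all genes above the floor on both arrays, but only 2 were called. Their median log2 ratio was 0.34 in ovary and -0.21 in testis, and with signals as deposited the ovary median was -0.12. Housekeeping genes had a median of 0.19 in ovary. Mfap5, a protein of microfibrils, had signals of 130 in fetal and 1457 in neonatal ovary, 11.2-fold higher, and its other probe set went from 84.9 to 804. Tnxb (tenascin X), which spaces collagen fibres, was at 306 and 1645, 5.38-fold higher. Eln (elastin) was at 1697 and 4608, a ratio of 2.72, and Postn, a matrix protein of growing connective tissue, at 4376 and 7770. The abundant collagens moved less, with Col1a1 at 4214 and 4948 and Col3a1 at 11700 and 13728.

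Of genes outside that list, 4 that rose are given here, chosen after their values were seen. Dpt (dermatopontin), which assembles collagen fibrils, was at 1230 and 7560, 6.15-fold higher, and in fetal and neonatal testis at 922 and 3293. Efemp1, a fibulin, was at 741 and 3106, 4.19-fold higher, and Ltbp2, which binds microfibrils, went from the floor to 691, at least 9.18-fold higher. Sfrp4, a secreted inhibitor of Wnt signals, was at 187 and 906, 4.84-fold higher. Vcan (versican), a proteoglycan of loose matrix, was at 2508 and 1356 and Lum (lumican) at 3675 and 2233, ratios of 1.85 and 1.65 in the other direction. Of 14 basement membrane genes 12 had a ratio above 1 and 0 were called (median 0.33, or -0.13 with signals as deposited), and of 12 remodelling genes 0 were called (median -0.09).

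Genes of stromal progenitors and of hedgehog signalling leaned lower, with 0 of 16 called and a median of -0.54 over 14 genes. Tcf21, a factor of gonadal mesenchyme, was at 2505 and 1147, a ratio of 2.18. Pdgfra was at 2886 and 1675, and Gli1, a target of hedgehog signals, at 207 and 116. Wt1, a factor of gonadal soma, was at 3289 and 3291. In the insulin-like growth factor system 0 of 10 genes were called (median -0.02), with Igf2 at 8314 and 8286. The binding proteins Igfbp6 and Igfbp7 were at 593 and 1936 and at 1874 and 6540, ratios of 3.27 and 3.49. Of 11 imprinted growth genes 0 were called (median -0.04), among them Mest at 6120 and 3106.

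Smooth muscle genes were higher, with 3 of 9 called and a median of 1.32 over 8 genes, against 0.53 in testis. Myh11, the smooth muscle myosin, was at 118 and 620, 5.27-fold higher, Actg2 at 113 and 572 (5.04-fold) and Tagln at 549 and 2611 (4.75-fold). Acta2, smooth muscle actin, was at 2986 and 8769, a ratio of 2.94. These genes are used by vessel walls, by theca and stroma of the ovary and by the muscle of the oviduct.

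**Figure D3:**
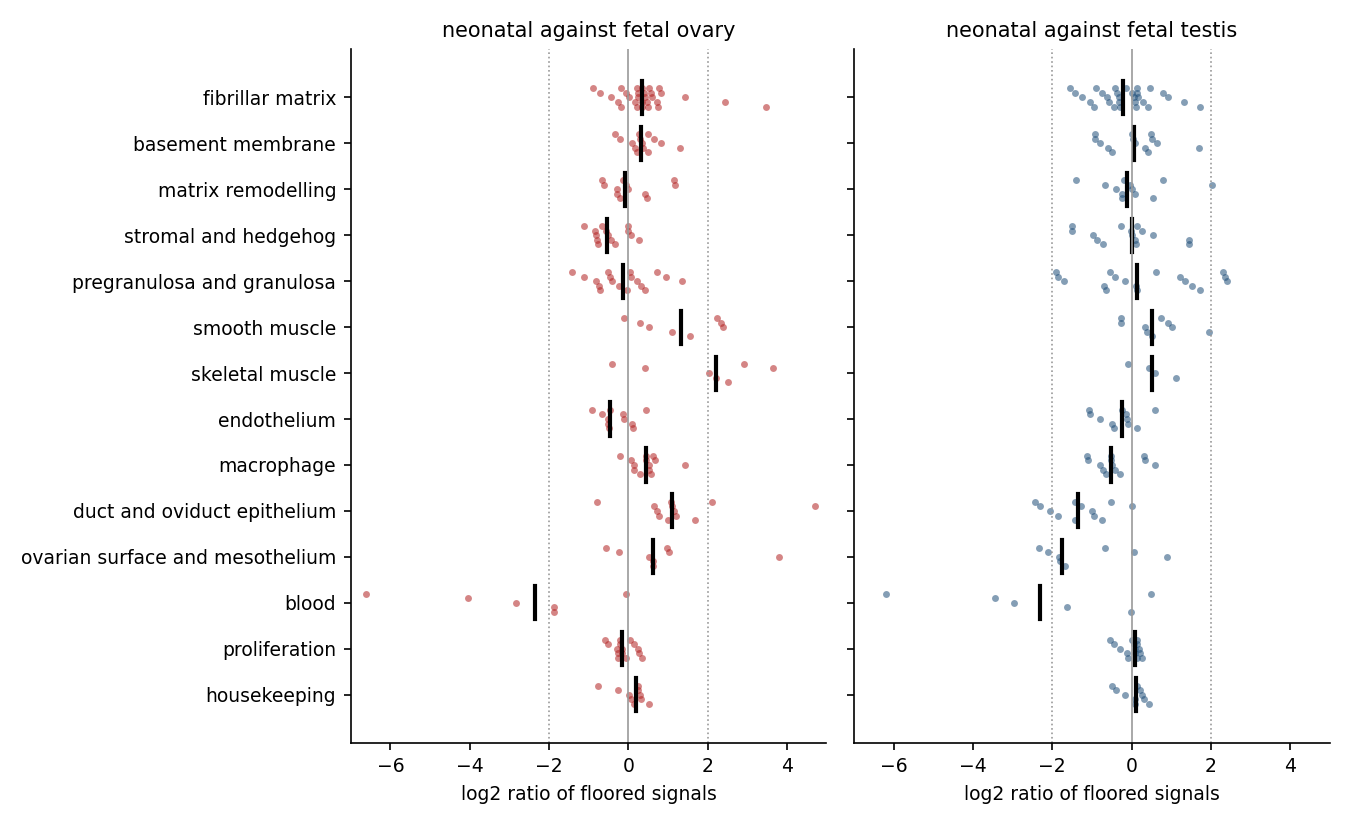
Log2 ratios of neonatal over fetal signal for genes of the tissue lists (points) and the list medians (bars), in ovary (left) and testis (right), with dotted lines at 4-fold and 1 array per group. In ovary the fibrillar matrix median is 0.34, the stromal and hedgehog median -0.54, the smooth muscle median 1.32 and the skeletal muscle median 2.21.

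Markers of tissues next to the ovary moved with these changes, and their part in them was not tested. Of 8 skeletal muscle genes 5 were called higher, and the median was 2.21 over 7 genes. Myh8, the perinatal myosin of skeletal muscle, went from the floor to 947 (at least 12.6-fold), Tnnc2, a troponin, from 109 to 819 (7.53-fold) and Acta1, skeletal actin, from 227 to 1310 (5.76-fold). The summed signal of the 8 genes was 839 in fetal and 4021 in neonatal ovary, and Myog, the factor of muscle differentiation, was at the floor on both arrays. Skeletal muscle also expresses matrix and actin genes.

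Epithelial genes of ducts and the oviduct were higher as well. Of 12 such genes above the floor 11 had a ratio above 1, 2 of 13 measured were called, and the median was 1.09, against -1.35 in testis. Ovgp1, the glycoprotein secreted by the oviduct, went from the floor to 1961, at least 26.0-fold higher, and was at the floor in adult ovary. Cldn3, a tight junction protein, was at 152 and 656, 4.32-fold higher. Krt8 was at 1976 and 4565 and Cdh1 at 475 and 1518. The summed signal of the 13 genes was 9186 and 21847. Of 8 genes of the ovarian surface and mesothelium 1 was called, and the median was 0.62, against -1.74 in testis. The called gene, Msln (mesothelin), went from the floor to 1051, at least 14.0-fold higher. Upk3b, a mesothelial gene, was at 2226 and 4501, and its other probe set at 1725 and 2844. Aldh1a2, of the same list, went the other way, from 3155 to 2156.

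Of other neighbouring tissues, 0 of 4 adrenal cortex genes were called (median 0.18 over 2) and 0 of 5 adipocyte genes (median 1.04 over 3), with Fabp4 at 373 and 998. None of 11 endothelial genes was called (median -0.46), and none of 13 macrophage genes (median 0.45, or -0.01 with signals as deposited). The 8 glucocorticoid response genes had 0 called (median -0.26, or 0.08 with scaling to the hybridization controls), and the 10 housekeeping genes 0 (median 0.19, or -0.28 with signals as deposited). Of 3 genes that liver secretes, chosen after their values were seen, Ttr was at 158 and 1024, Apoa1 at 108 and 453, and Alb, which was not called, at 539 and 1505.

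Of the 3 embryonic globin genes measured 2 fell, and Hbb-bh1 was at the floor on both arrays. Hbb-y, the embryonic beta-like globin, had a signal of 7328 in fetal ovary and was at the floor in neonatal ovary, at least 97.3-fold lower. Hba-x, the embryonic alpha-like globin, went from 1231 to the floor, at least 16.4-fold lower. Slc4a1, the anion exchanger of red cells, was at 1779 and 249, 7.14-fold lower. The list had 3 of 8 genes called lower and a median of -2.36 over 6 genes. In testis the median was -2.30, so the list's median shift was similar in both gonads at these ages. Off the list, and chosen after the calls were seen, Hbb-b2, a further beta globin, and Slc25a37 were called lower in ovary. Both were within 4-fold in testis.

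Other genes with the largest falls, or brightest in fetal ovary alone, were of mixed roles. Hmga2, a chromatin protein of fetal tissues, was at 2394 and 355, 6.74-fold lower, and its other probe sets had ratios of 12.9 and 9.73 in the same direction. Igf2bp1, a fetal RNA-binding protein, was at 498 and 97.0, 5.14-fold lower. Ccne2, a cyclin of entry into S phase, was at 685 and 107, 6.38-fold lower. Ppp1r3c, which targets a phosphatase to glycogen, was at 1167 and 124, 9.41-fold lower. Asb4 (538 and 83.3) and Atf7ip2 (516 and 79.2) were 6.46-fold and 6.51-fold lower. Ugt8a, an enzyme of glycolipid synthesis, went from 722 to the floor, at least 9.58-fold lower. Hmga2, Ppp1r3c and Asb4 were lower by 4-fold or more in testis too.

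Among the genes with the largest rise, several are on none of the lists. Bzw2 had the largest ratio, from 172 to 13269, 77.0-fold, but its other probe set went from 806 to 381, so the direction of this gene is not settled. AU015836, a gene of unknown role, was at 109 and 1613 (14.9-fold), and it rose in testis too. Fndc1 was at 162 and 2345 (14.5-fold), with its other probe set at the floor and 75.9. Lgals2, a galectin, was at 75.4 and 694 (9.19-fold), a fetal value all but at the floor, and its other probe set was at 105 and 204, a ratio of 1.95. Unc13c, of vesicle release, was at 114 and 997 (8.76-fold). Xdh, the enzyme that makes uric acid, went from the floor to 1911 (at least 25.4-fold) and 4930562C15Rik from the floor to 1634 (at least 21.7-fold).

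The change in ovary was set beside the change in testis between the same ages, a comparison that shares no array with it. In testis 65 genes were higher (0.357%) and 80 lower (0.44%). Of the 138 genes higher in neonatal ovary, 7 were called higher in testis too, 129 were within 4-fold, and 45 were at the floor in both testes. The 7 were AU015836, Cp, Egr1, Fos, Slc26a7, Tmem242 and Tppp3. Over all 18193 genes, 12669 were above the floor on at least 1 of the 2 testis arrays. The share at the floor in both testes was thus similar among all genes. Of the 42 lower genes, 7 were called lower in testis too: Asb4, Hba-x, Hbb-y, Hmga2, Ppp1r3c, Slc4a1 and Zfp719. Egr1, an immediate early gene that responds quickly to stimulation and was chosen after its values were seen, was at 526 and 3910 in ovary and at 1088 and 5630 in testis. Dppa3 and Lcn2 were called in opposite directions. Dppa3 was 19.4-fold higher in neonatal ovary and went from 1819 in fetal testis to the floor in neonatal testis, log2 ratios of 4.28 and -4.59.

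**Figure D4:**
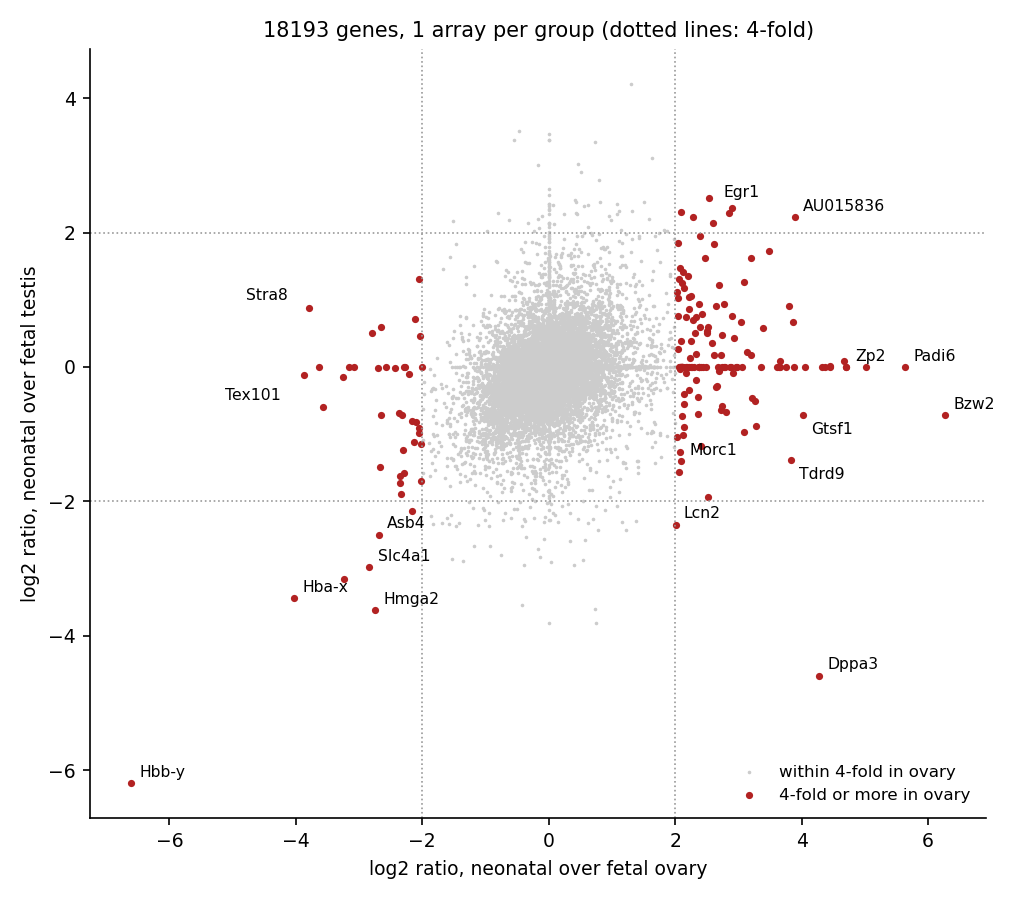
Log2 ratio of neonatal over fetal ovary (x axis) against neonatal over fetal testis (y axis) for 18193 genes, 1 array per group, with dotted lines at 4-fold and genes called in ovary in red. Most red points lie between the horizontal lines, Hbb-y is far down in both gonads, and Dppa3 lies at 4.28 and -4.59.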

How the data were processed

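RNA of each gonad was measured on an Affymetrix array, 1 array for each of 6 groups, with biotin-labelled RNA made from total RNA, per the labels' protocols. The deposited table holds 1 linear intensity for each of 45101 probe sets and array, and how the authors corrected background or scaled these intensities is unknown here. GCOS 1 is named in the submitters' processing notes.

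Each array was multiplied by 1 factor (0.913 to 1.26) to reach the same 2% trimmed mean, and values under the pooled median of 75.3 were raised to it, so that values at the floor have no order. Of the probe sets, 34945 carried a single gene symbol in the platform annotation. The brightest of them by mean over the 6 arrays stood for each of 18193 genes. The 932 probe sets with several symbols, the 64 controls and the unnamed probe sets stayed out of the genes. A ratio of 4 called a gene. With 1 array per group no test exists, and the precision is limited by the number of arrays. The robust SD over probe sets of a gene is technical and leaves out errors shared by a whole array.

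The comparison, the 39 gene lists (484 genes, of which 435 were matched by symbol or synonym) and the alternatives were chosen with earlier results of these data known, so the lists support no independent inference. A list is described by its count of called genes and by the median log2 ratio of its members above the floor on at least 1 of the 2 arrays. Where the middle gene of a list is at the floor, its median is a bound. A member above the floor on only 1 of the 2 arrays has the direction of its ratio fixed by this filter. Over all genes 0.759% were called higher and 0.231% lower. Lists of these sizes would mostly have 0 called at such shares, so a count of 0 is not read as a result. Genes named are the list members and, in each direction, the 10 with the largest ratio above the floor on both ovary arrays and the 10 with the highest signal among those at the floor in the opposite ovary. Genes outside this rule are said to have been chosen after their values were seen, as were the examples at the limit and those with discordant probe sets.

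Promoters are the 250 bases before each RefSeq start in GRCm38.p6. Motifs were searched on both strands, in every listed start of a gene. Alternatives covered the scaling, the floor, the choice of probe set and the calling ratio. The steps were tested on simulated arrays with noise of SD 0.2 (log2) in neonatal against fetal ovary. Of 18193 genes, 24 of 50 changed 4-fold, 50 of 50 changed 8-fold and 50 of 50 changed 16-fold were called. Of those changed 2-fold 0 of 50 were called, and of unchanged genes 0 of 17993. Every simulated array was built from the fetal ovary signals with independent noise. Differences in RNA integrity, discordant probe sets and differences between animals were left out. The count for unchanged genes is therefore no rate of false calls on the real arrays. The changed genes were raised or lowered in turn and had fetal ovary signals over 8 times the floor. Recovery of genes at or near the floor was thus not tested. Python 3.11.15, pandas 2.3.3, numpy 2.4.6 and scipy 1.17.1 were used.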

Additional observations from a re-analysis of the deposited data

Results flagged for a closer look

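Dppa3 and Lcn2 moved in opposite directions in the 2 gonads between the same ages, a difference that was not tested. Dppa3 had log2 ratios of neonatal over fetal signal of 4.28 in ovary and -4.59 in testis. Lcn2, a secreted iron-binding protein of innate defence, had 2.01 in ovary, at the limit of 4-fold, and -2.35 in testis, with signals of 229 and 919 in fetal and neonatal ovary and 556 and 109 in fetal and neonatal testis. Of 9160 probe sets without a gene name that are no controls, 12 were 4-fold or more higher and 12 lower in neonatal than in fetal ovary, which is 0.131% each way. The 2 with the largest rise went from the floor to 3659, at least 48.6-fold, and from 1089 to 11315, 10.4-fold. The 2 with the largest fall went from 856 to 129 and from 534 to 89.1.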

How the results depend on the processing

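No paired analysis was possible because each group has 1 array and the groups share a single replicate number. The 138 genes higher in neonatal ovary became 76 with signals as deposited, 289 and 36 with floors at the 25th and 75th percentile, 226 with no floor and 16 added, 655 at a ratio of 2 and 36 at a ratio of 8. The 42 lower genes became 99, 83, 4, 63, 450 and 10 in the same order. Signals as deposited moved the all-gene median log2 ratio, over genes that exceeded the floor in both ovaries, from -0.02 to -0.47, and scaling to the hybridization controls moved it to 0.20. With the floor at the 75th percentile 11 of the 17 oocyte genes were called and 0 of the 14 prophase genes, since fewer genes can reach a ratio of 4 above a higher floor. The fibrillar matrix median of 0.34 became -0.12 with signals as deposited. The smooth muscle median of 1.32 became 0.93 with signals as deposited, 0.74 with the floor at the 75th percentile and 0.81 without probe sets that can cross-hybridize. The log2 ratio of Bzw2 turned from 6.27 to -1.08 without such probe sets. In testis the 65 higher genes became 40 with scaling to the hybridization controls and 101 and 22 with the floors at the 25th and 75th percentile. The 80 lower genes in testis became 175 and 13 with those floors and 128 with no floor. The 2 genes that moved in opposite directions became 1 with signals as deposited, with scaling to the same median, with the floor at the 75th percentile and without probe sets that can cross-hybridize, 9 with the floor at the 25th percentile and 6 with no floor. Beyond what the floor's construction shows, the cause was not tested. Only the 68 called genes on the lists or among the ranked genes named were followed singly through these settings. Of them, 19 passed 4-fold in all 10 settings of scaling, floor and probe set. Hbb-y and Ovgp1 did so in the 9 that gave them a value. Of the 38 list medians, 17 changed sign in at least 1 setting, and the largest of these had a size of 0.45. Dim genes are limited by an unknown background, and differences between animals could not be measured.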

Other observations

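Genes outside the lists, chosen after their values were seen, add to the picture of the neonatal ovary. Kdm1b, the demethylase that clears a histone mark in growing oocytes before imprints are laid down, had signals of 556 in fetal and 2787 in neonatal ovary, 5.02-fold higher, and of 866 and 760 in fetal and neonatal testis. Morc1, a silencer of transposons, went from the floor to 320 in ovary, at least 4.26-fold higher, and was at 968 and 367 in testis. Tdrd5, a germ cell tudor protein, was at 113 and 458 in ovary and at 368 and 178 in testis. Rhox5, an X-linked homeobox gene, was at 601 and 122 in ovary, 4.91-fold lower, and Taf7l, a germ cell subunit of TFIID, at 1687 and 390, 4.32-fold lower. Cma1, a mast cell chymase, was at 306 and 1256 (4.10-fold higher), and Hdc, which makes histamine, at 211 and 868 (4.12-fold), both close to the limit of 4.

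Further genes were also chosen after their values were seen. Fos was at 122 and 875 (7.18-fold) and Atf3 at 103 and 679 (6.62-fold) in fetal and neonatal ovary, and in testis Fos was at 126 and 618 and Atf3 at 131 and 149. Nefm, a neurofilament gene, was at 900 and 5651 in ovary (6.28-fold) and at 312 and 255 in testis. Sox11, a factor of fetal progenitors, was at 927 and 181 in ovary (5.13-fold lower) and at 733 and 221 in testis. Xist, the RNA that coats the inactive X chromosome, was at 4085 in fetal and 1950 in neonatal ovary, 2.09-fold lower and not called, and its other probe sets went from 571 to 314 and from 507 to 119.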
